A study of Homo sapiens with 12 samples.

Results

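A set of 6 genes of acid-base balance was followed across 4 culture conditions of a human ovarian cancer cell line, namely the carbonic anhydrase genes CA9, CA12, CA8, CA11 and CA13 and the bicarbonate transporter gene SLC4A7. They were picked by symbol, with earlier results of these libraries already known, from the 32966 genes that had a count in any library. The 6 genes are therefore described by their values here, without a test. Only 3 of the 6, CA9, CA13 and SLC4A7, passed the filter on low counts and entered the fit of 16891 genes, CA9 by its counts at 3% O2 alone. The other 3 had too few counts in every condition. To place them, 94 further genes of acid-base balance in 6 lists were examined, of which 58 entered the fit.

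Carbonic anhydrases catalyse the interconversion of carbon dioxide and bicarbonate with release of a proton. CA9 and CA12 are anchored in the plasma membrane with the catalytic domain outside the cell, CA13 is a cytosolic enzyme, and CA8 and CA11 are related proteins that lack the catalytic activity. SLC4A7 (NBCn1) carries sodium and bicarbonate into the cell, which buffers acid formed by metabolism. CA9 is a textbook target of the hypoxia-inducible factor HIF-1 and is widely used as a marker of hypoxic tumour regions.

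The cells were FDX2-iKO ES2 cells. In these cells the endogenous FDX2 gene is knocked out by genome editing in every condition, and a genome-editing resistant, HA-tagged FDX2 is expressed from a TetON promoter as long as doxycycline (Doxy) is present. FDX2 is a mitochondrial ferredoxin that takes part in assembly of iron-sulfur clusters. The conditions were 20% O2 + Doxy, 20% O2 wo Doxy (without Doxy), 3% O2 + Doxy and 3% O2 wo Doxy, with 3 libraries each. Cells at 20% O2 were cultured for 6 days, whereas cells at 3% O2 had 4 days of preculture at 20% O2 and then 3 days at 3% O2. Loss of FDX2 and withdrawal of Doxy therefore cannot be told apart, nor can low oxygen and the longer culture. The lines described in the study are single clones, of which the first is used there unless stated otherwise. Its legend for the RNA-seq at 20% O2 calls the samples biological replicates, and the labels themselves name neither the clone nor how the 3 libraries of a condition are related.

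The 12 libraries held between 24958386 and 34313637 counts on genes. FDX2, the targeted gene, had 5, 2 and 6 counts in 20% O2 + Doxy, 9, 13 and 4 in 20% O2 wo Doxy, 2, 4 and 12 in 3% O2 + Doxy, and 7, 7 and 5 in 3% O2 wo Doxy, so the labels could not be checked on it. The markers fixed for the cell line were partly present: PAX8, KRT7, KRT8 and KRT18 were above 1 CPM (counts divided by the TMM-scaled size of the library, in units of 1000000) on average in each condition, while EPCAM, CDH1, WT1, KRT19, MUC16 and NAPSA had at most 9 counts in any library. All 4 mesenchymal markers were expressed, the leukocyte and erythroid markers were at or near 0, and of the endothelial markers PECAM1 was near 0 while CDH5 lay between 22.1 and 51.4 CPM. In all, 3 libraries stood apart in how levels follow the GC content of transcripts. In replicate 1 of 20% O2 + Doxy, replicate 3 of 3% O2 + Doxy and replicate 2 of 3% O2 wo Doxy, genes of 60% GC were raised against genes of 45% GC. The rise was between 0.31 and 0.32 on the log2 scale, compared with −0.25 to 0.09 in the other 9 libraries. The trend also differed between conditions, from −0.25 to −0.16 in 20% O2 wo Doxy and from 0.01 to 0.32 in 3% O2 wo Doxy. Correction by library therefore also takes out any GC-linked difference between conditions. CA9 and CA11 are GC-rich (58.8% and 59.0% of transcript bases), while SLC4A7 (40.0%) and CA13 (42.5%) are GC-poor. Values after correction for this trend and without these 3 libraries are therefore given for CA9, CA13 and SLC4A7, and for the list genes named for the largest changes where they moved the value by over 1.5 times or ended a call.

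The promoter sequences of CA9 and CA12 are shown because both encode membrane-bound enzymes, yet their levels in these cells differed widely at 3% O2. RefSeq promoters on GRCh38.p14 were matched for 3 of the 6 genes (CA9, CA12 and SLC4A7), and CA8, CA11 and CA13 had no entry. The 250 bases before the start are printed 5′ to 3′ on the gene's strand, with any ACGTG or its reverse complement CACGT in capitals. ACGTG is a form of the core of the hypoxia response element, and other forms of that core were not searched. ACGTG overlaps with the E-box CACGTG.
CA9, chr9:35673678-35673927, plus strand: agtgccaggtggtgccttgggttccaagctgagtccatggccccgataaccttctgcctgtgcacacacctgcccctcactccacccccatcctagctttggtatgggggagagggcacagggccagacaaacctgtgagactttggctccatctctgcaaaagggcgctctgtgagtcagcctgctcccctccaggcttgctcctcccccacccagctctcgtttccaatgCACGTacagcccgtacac
CA12, chr15:63381847-63382096, minus strand: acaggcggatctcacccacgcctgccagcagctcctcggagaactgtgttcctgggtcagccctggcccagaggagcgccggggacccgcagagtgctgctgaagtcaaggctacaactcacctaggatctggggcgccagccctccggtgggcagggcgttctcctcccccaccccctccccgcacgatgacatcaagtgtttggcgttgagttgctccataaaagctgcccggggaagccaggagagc
The CA9 window held 1 match, which begins 18 bases before the start, and it is not part of an E-box. No ACGTG was found in the CA12 window or in the windows of the 2 SLC4A7 starts in the table. This does not cover other forms of the core, so it does not set CA12 apart from CA9. Of 35116 promoters of the same length, 6501 (18.5%) held ACGTG on either strand and 2228 (6.34%) held CACGTG. The RefSeq starts differ from the gene coordinates given below. The CA12 window lies wholly inside the annotated gene, whose 5′ end is at 63382161. The CA9 window runs past the annotated start at 35673856, and the SLC4A7 windows lie partly or wholly inside the gene. Sequence upstream of the annotated CA12 5′ end was not examined. A match describes the letters in the window and is not evidence of binding.

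CA9 (ENSG00000107159, chr9:35673856-35681159, plus strand) was close to 0 at 20% O2 and abundant at 3% O2, with or without Doxy. It had 3, 3 and 2 counts in the libraries of 20% O2 + Doxy and 9, 8 and 6 in those of 20% O2 wo Doxy. At 3% O2 it had 1248, 1653 and 2699 counts with Doxy and 1145, 1492 and 2687 without. Every library at 3% O2 was far above every library at 20% O2, and the 2 conditions at 3% O2 covered the same range. In CPM, the means were 0.0878 ± 0.0259 in 20% O2 + Doxy, 0.246 ± 0.0473 in 20% O2 wo Doxy, 63.6 ± 23.4 in 3% O2 + Doxy and 63.0 ± 19.1 in 3% O2 wo Doxy (SD, n = 3 each).

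The size of the CA9 difference is limited by the few counts at 20% O2. With Doxy, 8 counts in all stood against 5600, a ratio of 739 with a 95% interval of 375 to 1713 that covers counting error only. Without Doxy, 23 counts stood against 5324, a ratio of 264 (176 to 416). Ratios of mean CPM, with each 20% O2 library set to at least 3 counts, the smallest number taken as detected, were 652 and 257. Without Doxy every 20% O2 library had more than 3 counts, so the floor changed nothing there. The 257 differs from 264 only because means of CPM replace pooled counts. With Doxy, both the floor and this change of measure enter the 652. The log2 fold changes in edgeR's fit, which rest on the handling of counts near 0, were 9.46 (standard error 0.49) with Doxy and 7.98 (0.43) without. They lay between 9.16 and 9.70 and between 7.72 and 8.16 when single libraries were left out, and at 9.41 and 7.74 after GC correction. Leaving out the 3 libraries with the steepest GC trend gave 9.24 and 8.01.

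**Figure D1:**
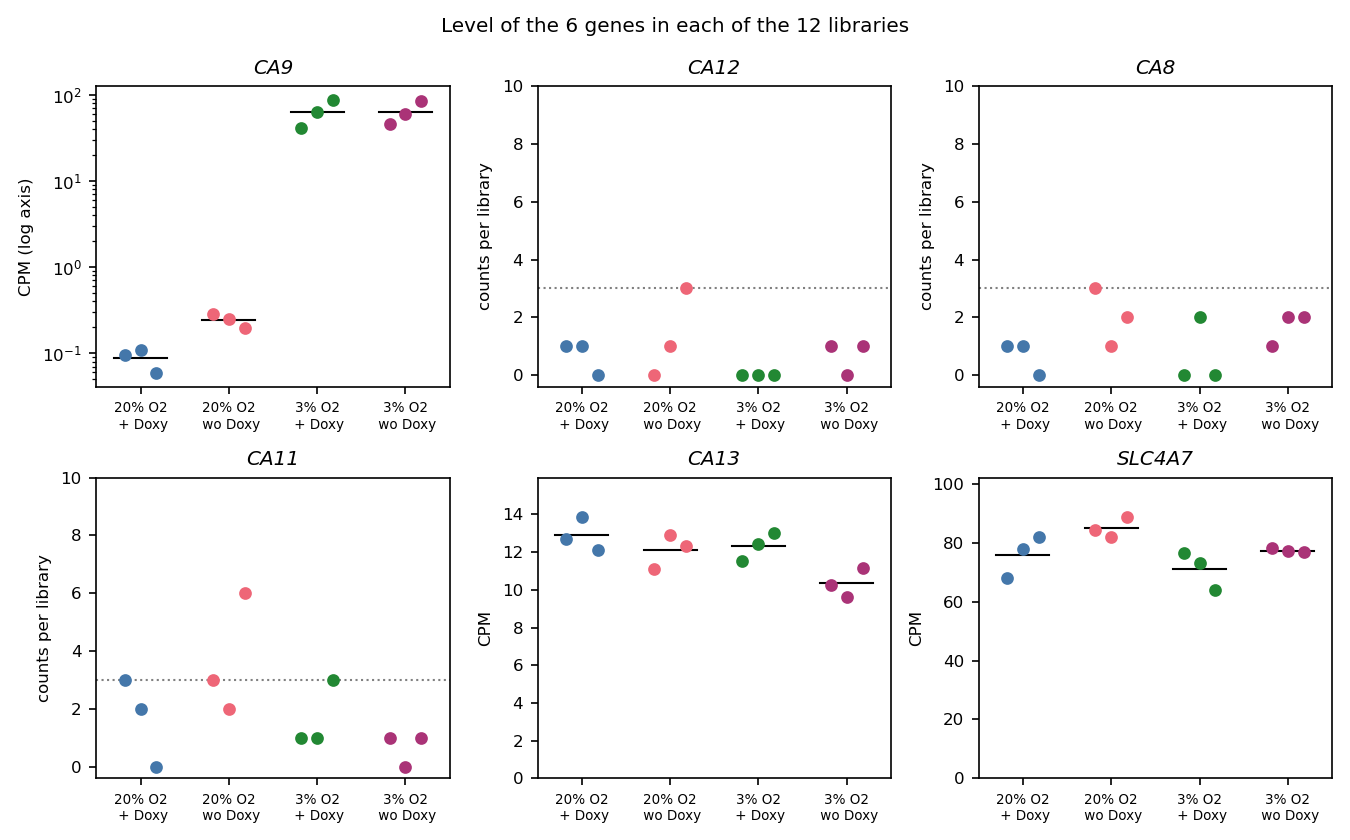
Level of each of the 6 genes in each library, with 3 libraries per condition drawn left to right as replicates 1 to 3. CA9, CA13 and SLC4A7 are in CPM (log axis for CA9) with the condition mean as a black line, and CA12, CA8 and CA11 are in counts per library with a dotted line at 3 counts. CA9 lay between 40.4 and 87.3 CPM in the 6 libraries at 3% O2 and below 0.3 CPM in the 6 at 20% O2, whereas CA12, CA8 and CA11 did not exceed 6 counts anywhere.

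Loss of FDX2 went with a small excess of CA9 counts at 20% O2 and with no visible shift at 3% O2. At 20% O2, the 6 to 9 counts without Doxy did not overlap with the 2 to 3 counts with Doxy. The ratio of levels was 2.85 with a 95% counting interval of 1.23 to 7.38. The interval for the log2 fold change derived from edgeR's fit reached from −0.90 to 3.84. It includes a spread between libraries that is estimated over all 12 libraries, those at 3% O2 included, and not from the compared libraries alone. At 3% O2 the libraries overlapped fully, and the log2 fold change was −0.01 (95% interval −0.56 to 0.54). It was 0.31 without the 3 libraries with the steepest GC trend and lay between −0.27 and 0.29 when single libraries were left out, so its sign depended on the libraries used. The difference between the log2 fold changes at 3% and 20% O2 was −1.48 (95% interval −3.91 to 0.95).

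Libraries at 3% O2 varied widely in CA9. With Doxy, replicates 1, 2 and 3 stood at 40.4, 63.1 and 87.3 CPM, and without Doxy at 46.1, 59.2 and 83.8 CPM. In both conditions replicate 1 was the lowest and replicate 3 the highest. After correction for the GC trend the values were 43.0, 65.8 and 73.6 with Doxy and 45.2, 50.8 and 79.7 without, in the same order. Across all genes, deviations of same-numbered libraries of these conditions were not all of one sign (correlations of 0.63, −0.61 and 0.20), so the numbers are not known to pair the libraries.

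**Figure D2:**
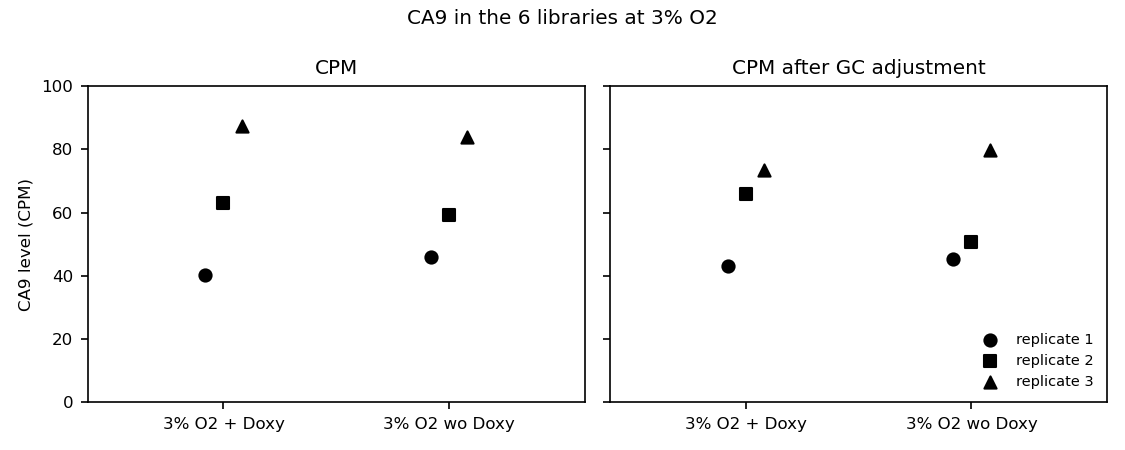
CA9 level in CPM in the 6 libraries at 3% O2, as counted (left) and after correction for the GC trend of each library (right), with one symbol per replicate number. The libraries span 40.4 to 87.3 CPM as counted and 43.0 to 79.7 CPM after correction, and both conditions cover much the same range.

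The CA9 counts carry one further limit. Of its 1670 exon bases, 643 (38.5%) overlap with exons of ARHGEF39 on the opposite strand, and the strand setting of the counting is not given in the sources used here. ARHGEF39 had means of 19.5, 10.1, 21.6 and 18.7 CPM in 20% O2 + Doxy, 20% O2 wo Doxy, 3% O2 + Doxy and 3% O2 wo Doxy. CA9 had 9 counts or fewer in each 20% O2 library, and the part of ARHGEF39 reads in its counts was not tested. Per kilobase of exon, CA9 stood at 38.1 ± 14.0 and 37.7 ± 11.5 CPM at 3% O2 with and without Doxy (SD, n = 3), and if only exon bases not shared with ARHGEF39 are taken as its length these become 61.9 and 61.4.

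CA12, the other membrane-bound enzyme among the 6 genes, did not share this pattern. CA12 (ENSG00000074410, chr15:63321378-63382161, minus strand) had 1, 1 and 0 counts in 20% O2 + Doxy, 0, 1 and 3 in 20% O2 wo Doxy, 0, 0 and 0 in 3% O2 + Doxy and 1, 0 and 1 in 3% O2 wo Doxy. The 3 libraries of 3% O2 + Doxy, all without a count, allow levels of up to 0.0970 to 0.115 CPM per library (3 counts). No difference between conditions was detectable at this depth, and the counts were at or under 3 in every library.

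CA8 and CA11, the related proteins without enzyme activity, were equally scarce. CA8 (ENSG00000178538, chr8:60187347-60281412, minus strand) had 1, 1 and 0 counts in 20% O2 + Doxy, 3, 1 and 2 in 20% O2 wo Doxy, 0, 2 and 0 in 3% O2 + Doxy and 1, 2 and 2 in 3% O2 wo Doxy. CA11 (ENSG00000063180, chr19:48637942-48646312, minus strand) had 3, 2 and 0 counts in 20% O2 + Doxy, 3, 2 and 6 in 20% O2 wo Doxy, 1, 1 and 3 in 3% O2 + Doxy and 1, 0 and 1 in 3% O2 wo Doxy. For both genes the libraries of the conditions overlapped, apart from CA11 without Doxy, where 2 to 6 counts at 20% O2 stood above 0 to 1 at 3% O2. The exact 95% Poisson intervals of the CA11 level, which cover counting error only, were 0.0587 to 0.210 CPM at 20% O2 and 0.00295 to 0.0880 CPM at 3% O2, and overlapped. The CA8 intervals reached up to 0.142 CPM, in 3% O2 wo Doxy.

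CA13, the cytosolic enzyme, was expressed in all libraries at nearly constant levels. CA13 (ENSG00000185015, chr8:85220587-85284073, plus strand) stood at 12.7, 13.9 and 12.1 CPM in 20% O2 + Doxy, at 11.1, 12.9 and 12.3 in 20% O2 wo Doxy, at 11.5, 12.5 and 13.0 in 3% O2 + Doxy and at 10.3, 9.60 and 11.2 in 3% O2 wo Doxy. The last condition was the lowest, with a mean of 10.3 ± 0.785 CPM against 12.1 ± 0.929 to 12.9 ± 0.898 in the conditions at 20% O2 and 12.3 ± 0.743 in 3% O2 + Doxy (SD, n = 3 each). Its 3 libraries lay below all libraries with Doxy at either oxygen level and overlapped those of 20% O2 wo Doxy by less than 0.1 CPM. The other 3 conditions overlapped with each other.

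For CA13 the log2 fold change upon FDX2 loss was −0.09 (95% interval −0.28 to 0.10) at 20% O2 and −0.25 (−0.45 to −0.06) at 3% O2. Between 3% and 20% O2 it was −0.07 (−0.26 to 0.13) with Doxy and −0.23 (−0.42 to −0.03) without. The difference between the responses to FDX2 loss was −0.16 (−0.44 to 0.11). These intervals are not adjusted for the number of genes. After GC correction the log2 fold changes at 3% O2 and without Doxy were −0.22 and −0.13, and without the 3 libraries with the steepest GC trend −0.18 and −0.19. The exon overlap of CA13 is small, with 191 of 5528 bases (3.46%) shared with the antisense gene ENSG00000258256.

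SLC4A7 (ENSG00000033867, chr3:27372721-27484420, minus strand) was expressed in all libraries at similar levels. It stood at 68.2, 77.8 and 81.9 CPM in 20% O2 + Doxy, at 84.3, 82.0 and 88.9 in 20% O2 wo Doxy, at 76.6, 73.2 and 64.0 in 3% O2 + Doxy and at 78.3, 77.1 and 76.8 in 3% O2 wo Doxy. Ordered by mean, 20% O2 wo Doxy (85.1 ± 3.52) was followed by 3% O2 wo Doxy (77.4 ± 0.785), 20% O2 + Doxy (76.0 ± 7.02) and 3% O2 + Doxy (71.3 ± 6.51; SD, n = 3 each). The libraries of 20% O2 wo Doxy lay above those of every other condition, although only narrowly above 20% O2 + Doxy. The next neighbours in this order overlapped, and 3% O2 wo Doxy lay above all libraries of 3% O2 + Doxy.

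In the conditions with Doxy, the lowest SLC4A7 libraries were those with the steepest GC trend, at 68.2 CPM (replicate 1 at 20% O2) and 64.0 CPM (replicate 3 at 3% O2). In 3% O2 wo Doxy, the library with the steepest trend, replicate 2 at 77.1 CPM, lay between the other two. After GC correction the level lay between 72.7 and 75.2 CPM in 20% O2 + Doxy, between 79.6 and 82.4 in 20% O2 wo Doxy, between 71.0 and 74.8 in 3% O2 + Doxy and between 78.5 and 84.5 in 3% O2 wo Doxy. On this scale all libraries without Doxy were above all libraries with Doxy at either oxygen level, and the 2 oxygen levels overlapped. The part of GC content in the uncorrected differences was not tested further, and the correction also takes out any GC-linked difference between conditions.

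In the fit without GC correction, the log2 fold change of SLC4A7 upon FDX2 loss was 0.16 (95% interval −0.01 to 0.34) at 20% O2 and 0.12 (−0.06 to 0.29) at 3% O2. The GC-corrected values were 0.13 (standard error 0.035) and 0.17 (0.036). Leaving out the 3 libraries with the steepest trend gave 0.08 and 0.03. Between 3% and 20% O2 the log2 fold change was −0.09 (−0.27 to 0.08) with Doxy and −0.14 (−0.31 to 0.04) without, and after GC correction −0.03 and 0.01, so that the sign without Doxy turned. The responses to FDX2 loss at 3% and 20% O2 differed by −0.04 (−0.29 to 0.20).

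**Figure D3:**
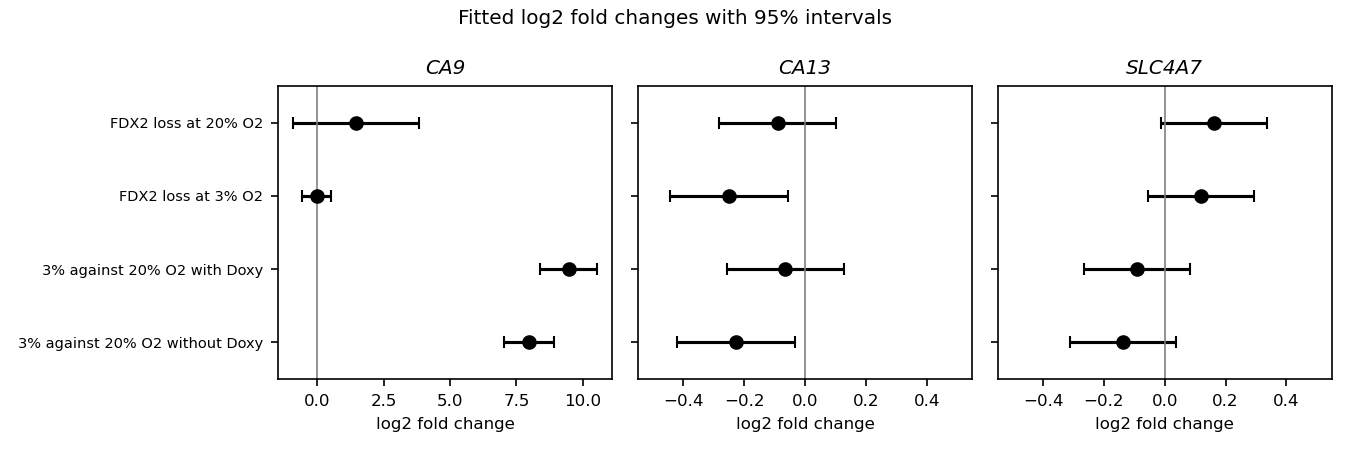
Log2 fold changes of CA9, CA13 and SLC4A7 from edgeR's fit to all 12 libraries, with 95% intervals, in the 4 comparisons between conditions (x axis on a wider scale for CA9). CA9 stands at 9.46 and 7.98 for 3% against 20% O2, while CA13 and SLC4A7 lie between −0.25 and 0.16 in all 4.

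Counted at an adjusted p under 0.05, CA9 was the only one of the 6 genes past the threshold, in the higher direction for 3% against 20% O2 with and without Doxy. With Doxy, 1.63% of all 16891 genes were higher and 0.385% lower by the same rule, and without Doxy 13.9% and 11.9%. None of the 6 passed upon FDX2 loss at 20% O2 (17.6% of all genes higher and 17.7% lower), upon FDX2 loss at 3% O2 (4.2% and 3.11%) or in the difference between the responses (3.21% and 4.08%). The fit is edgeR's, and at an unadjusted p under 0.05 the counts were 0, 1 and 0. DESeq2 also called none of the 6 in these 3 comparisons. With GC correction, SLC4A7 passed upon FDX2 loss at both oxygen levels. Because the genes were chosen with such results known, these counts support nothing about them.

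Compared per kilobase of exon, the order of the genes changed with oxygen. At 20% O2, SLC4A7 was the highest with 7.90 ± 0.730 CPM per kilobase with Doxy and 8.85 ± 0.366 without, followed by CA13 with 2.33 ± 0.163 and 2.19 ± 0.168 (SD, n = 3). CA9 then had 0.0526 and 0.147 CPM per kilobase, and CA12, CA8 and CA11 lay at or below 0.0570. At 3% O2, CA9 was far above SLC4A7, which had 7.41 ± 0.677 with Doxy and 8.05 ± 0.0817 without, and CA13, which had 2.23 ± 0.134 and 1.87 ± 0.142.

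Genes that followed the 6 most closely were sought by the root-mean-square difference in log2 CPM over the 4 condition means, after each gene's own mean was taken out. For CA9 the closest of 13599 genes were PPFIA4 (1.76), MIR210HG (2.02), the host transcript of miR-210, and PFKFB4 (2.84), an enzyme that controls glycolytic flux. None was within 0.1 of CA9, since the span of CA9 between conditions, from −4.57 to 4.07 around its mean, was wider than theirs. PPFIA4, the closest, reached from −2.34 to 2.37. Within 250 bases before its RefSeq start PPFIA4 held ACGTG matches that include an E-box, MIR210HG held 1 match and PFKFB4 none. For CA13 the closest genes were FHIP2A (0.0055), GHR (0.0076) and NPAT (0.0098), and for SLC4A7 TFPI (0.0044), EIF4BP7 (0.0087) and CHKA (0.0095). With 1825 genes within 0.1 of CA13 and 2815 within 0.1 of SLC4A7, these nearly flat patterns were common. CA12, CA8 and CA11 were too close to 0 to be compared in this way.

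The rest of the carbonic anhydrase family was low or not detected. Of the 10 other family members examined, only CA3 (13 to 29 counts per library) and CA5B (195 to 303) passed the filter, and neither passed edgeR's test in any comparison. CA5B, a mitochondrial enzyme, had means between 7.52 ± 0.640 and 9.07 ± 0.739 CPM (SD, n = 3). It shares exon bases with INE2 and has a close pseudogene, CA5BP1, so its counts are uncertain. CA6 had 3 to 10 counts per library and CA14 0 to 10, with the 10 in replicate 1 of 3% O2 wo Doxy. CA2, the abundant cytosolic enzyme of many tissues, had 0 to 5 counts, CA1, CA4 and CA5A had at most 2, and CA7 and CA10 had 0 in all 12 libraries. A count of 0 in a library allows a level of up to 0.0882 to 0.121 CPM, depending on its size.

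Among the bicarbonate transporters of the SLC4 and SLC26 families, 12 of 20 were tested, SLC4A7 included. Upon FDX2 loss at 20% O2, 4 rose and none fell (SLC4A4, SLC4A8, SLC26A6 and SLC26A7), and 6 passed an unadjusted p under 0.05. These are 33.3% of the list higher and none lower, beside 17.6% and 17.7% of all genes. Taken in either direction, the 33.3% is near the 35.3% of all genes. The SLC26A7 call rests on few counts, with 18, 14 and 16 in 20% O2 + Doxy and 25, 31 and 29 in 20% O2 wo Doxy. The median log2 fold change of the list was 0.22, compared with 0.01 over all genes tested. At 3% O2, SLC4A8, a sodium-driven chloride-bicarbonate exchanger, rose by 0.35 (standard error 0.067, adjusted p = 0.0101) and SLC26A2, a sulfate transporter, fell by 0.28 (0.071, adjusted p = 0.035), with a list median of 0.07 against 0.04 over all genes. These 2 calls are 16.7% of the list, beside 7.31% of all genes that changed in either direction. The SLC26A2 call was lost in 5 of the 6 fits that leave out one library (adjusted p up to 0.14) and held only without replicate 3 of 3% O2 + Doxy. The SLC4A8 call was lost without replicate 2 of 3% O2 + Doxy (adjusted p = 0.055).

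SLC4A4 (NBCe1), a sodium-bicarbonate cotransporter, was lower at 3% O2 than at 20% O2 in the cells without Doxy. Its levels were 7.86, 7.59 and 8.74 CPM in 20% O2 wo Doxy and 4.87, 4.84 and 5.49 in 3% O2 wo Doxy, without overlap. This was a change of −0.67 on the log2 scale (standard error 0.12, adjusted p = 0.0029, edgeR's quasi-likelihood test). With Doxy, 5.69, 5.83 and 7.20 CPM at 20% O2 stood beside 5.86, 4.74 and 5.59 at 3% O2 and overlapped. SLC26A4 (pendrin), an anion exchanger, rose at 3% O2 with Doxy by 0.84 (standard error 0.16, adjusted p = 0.021), from 3.04 ± 0.224 to 5.44 ± 1.14 CPM (SD, n = 3). This call was lost in 5 of the 6 fits with one library left out (adjusted p up to 0.085; it held only without replicate 3 of 3% O2 + Doxy). The list medians for 3% against 20% O2 were −0.06 with Doxy (1 higher, none lower, 4 at an unadjusted p under 0.05) and 0.11 without (2 higher, 1 lower), compared with −0.0045 and 0.07 over all genes.

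Of the sodium-proton exchangers and their partner proteins, 12 of 18 were tested. The 2 scaffold proteins NHERF1 and NHERF2, which tether exchangers at the membrane, moved with FDX2 at 20% O2. NHERF1 stood at 45.5, 33.1 and 33.3 CPM in 20% O2 + Doxy and at 20.3, 20.1 and 18.4 in 20% O2 wo Doxy, which is −0.93 on the log2 scale (standard error 0.14, adjusted p = 0.00049). NHERF2 fell from 127 ± 32.7 to 85.1 ± 2.74 CPM (SD, n = 3), by 0.58 on the log2 scale (standard error 0.20, adjusted p = 0.041). The NHERF2 call was lost in 5 of the 6 fits with one library left out (adjusted p up to 0.14) and held only without replicate 3 of 20% O2 + Doxy, whereas the NHERF1 call was lost in none. NHERF2 was at 165, 113 and 104 CPM in 20% O2 + Doxy, with the 165 in the library of steep GC trend, and its change was −0.23 after GC correction and −0.36 without the 3 libraries of steep trend, both past the threshold. SLC9A7, an exchanger of the trans-Golgi network, rose by 0.40, and SLC9B2 fell by 0.19. In all, 1 gene of this list rose and 3 fell, with a median of 0.10 against 0.01 over all genes. The 4 genes are 33.3% of the 12 tested, near the 35.3% of all genes that changed in either direction.

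At 3% O2, none of these 12 genes changed upon FDX2 loss in edgeR's test, while 3 had an unadjusted p under 0.05. NHERF1 and NHERF2 were higher in 3% O2 wo Doxy than in 20% O2 wo Doxy, by 0.66 (standard error 0.14, adjusted p = 0.0069) and 0.74 (0.20, adjusted p = 0.020) on the log2 scale, and SLC9B2 and CHP1 were lower. The NHERF2 call was lost without any one replicate of 20% O2 wo Doxy or without replicate 2 of 3% O2 wo Doxy (adjusted p up to 0.081). With GC correction the differences were smaller, 0.36 for NHERF1 and 0.29 for NHERF2, and both passed. With Doxy, SLC9B2 fell by 0.34 (standard error 0.068, adjusted p = 0.023), from 17.8 ± 0.525 to 14.1 ± 0.289 CPM, and the call was lost in all 6 fits with one library left out (adjusted p up to 0.11) and without the 3 libraries of steep GC trend (adjusted p = 0.068). The 11 other genes of the list did not pass the test with Doxy. For oxygen, the calls are 8.33% of the list with Doxy and 33.3% without, beside 2.02% and 25.8% of all genes.

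The monocarboxylate transporter genes held the largest increase between the oxygen levels after CA9 among the 61 tested genes of the 6 lists. SLC16A3 (MCT4), the lactate and proton exporter of glycolytic cells, had 3.68, 2.83 and 2.62 CPM in 20% O2 + Doxy and 3.27, 3.45 and 2.44 in 20% O2 wo Doxy. At 3% O2 it had 8.29, 11.0 and 12.3 CPM with Doxy and 9.54, 11.5 and 12.9 without. The oxygen levels did not overlap, and the Doxy conditions did at both. From 20% to 3% O2 it rose by 1.79 on the log2 scale (standard error 0.20, adjusted p = 0.00046) with Doxy and 1.89 (0.20, adjusted p = 9.7e-05) without. Both calls held whichever library was left out. SLC16A1 (MCT1), which carries lactate both ways, fell upon FDX2 loss at 3% O2 by 0.27 on the log2 scale (standard error 0.065, adjusted p = 0.030), from 194 ± 11.9 to 161 ± 6.96 CPM (SD, n = 3). Its call was lost in 4 of the 6 fits with one library left out (adjusted p up to 0.14; without replicates 1 or 2 of 3% O2 + Doxy, or replicates 2 or 3 of 3% O2 wo Doxy). The other 3 tested genes of this list passed no test in edgeR's fit. A single call is 20.0% of the 5 genes tested. Beside it stand 2.02% of all genes for oxygen with Doxy, 25.8% without and 7.31% upon FDX2 loss at 3% O2.

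Of the proton channels and acid sensors, 6 of 15 were tested. ASIC3 rose upon FDX2 loss at 20% O2 by 0.63, the only call of the list in that comparison (16.7% of it, beside 35.3% of all genes). No gene of the list passed the test upon FDX2 loss at 3% O2 or for oxygen with Doxy, where 1 and 3 genes had an unadjusted p under 0.05.

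**Figure D4:**
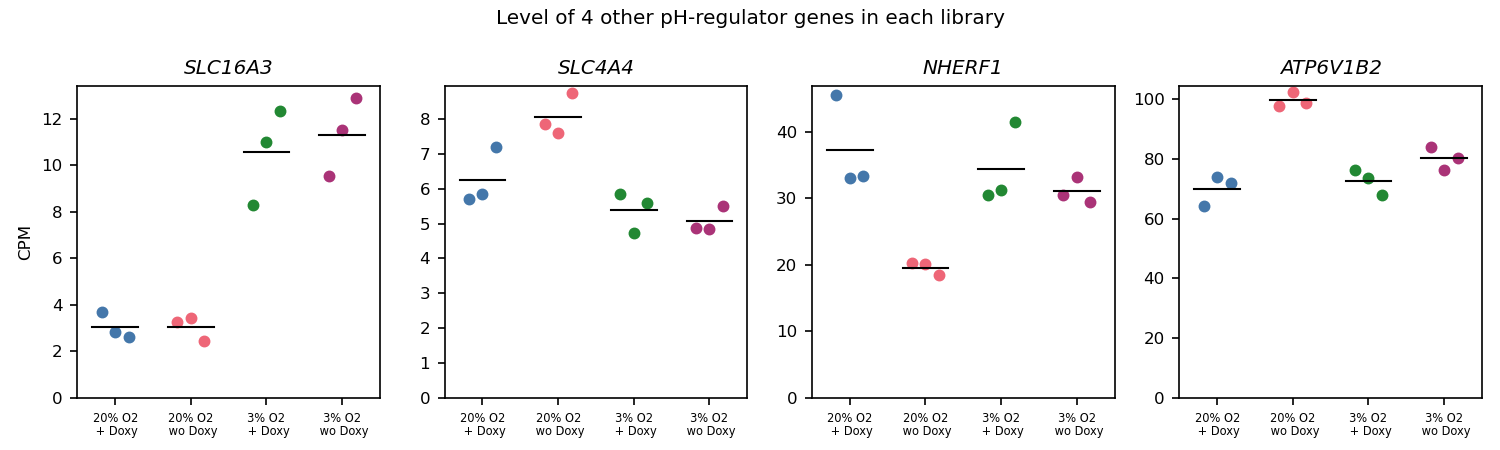
Level in CPM of the lactate exporter gene SLC16A3, the bicarbonate cotransporter gene SLC4A4, the scaffold gene NHERF1 and the V-ATPase gene ATP6V1B2 in each library, with the condition mean as a black line and replicates 1 to 3 from left to right. SLC16A3 separates by oxygen (at most 3.68 CPM at 20% O2 and at least 8.29 CPM at 3% O2), while NHERF1 and ATP6V1B2 set 20% O2 wo Doxy apart from the other conditions.

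Subunits of the V-ATPase, the proton pump of lysosomes and other acidic compartments, made up the longest list. Of 22 tested genes, 10 rose and 2 fell upon FDX2 loss at 20% O2 (14 at an unadjusted p under 0.05), with a median log2 fold change of 0.21 against 0.01 over all genes. The shares, 45.5% higher and 9.09% lower, stand beside 17.6% and 17.7% of all genes. The genes that rose included 6 of the cytosolic V1 sector, which hydrolyses ATP, namely ATP6V1A, ATP6V1B2, ATP6V1C1, ATP6V1E1, ATP6V1F and ATP6V1G1. ATP6V1B2 stood at 64.3, 73.8 and 71.8 CPM with Doxy and at 97.6, 102 and 98.7 without. Its log2 fold change was 0.51 (standard error 0.066, adjusted p = 0.00017). ATP6V1F (0.55, adjusted p = 5.6e-05), ATP6V1G1 (0.47, adjusted p = 0.0023) and ATP6V1C1 (0.41, adjusted p = 0.00082) were similar, and all 4 calls held whichever library was left out. Of the exon bases of ATP6V1F, 23.7% overlap with KCP, which limits its counts.

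The 2 V-ATPase genes that fell were TCIRG1, the a3 subunit of the membrane sector, by 0.73 on the log2 scale (standard error 0.25, adjusted p = 0.040), and ATP6V0E2, by 0.42 (0.12, adjusted p = 0.023). The TCIRG1 call was lost in 5 of 6 fits with one library left out (adjusted p up to 0.15; it held only without replicate 3 of 20% O2 + Doxy), and the ATP6V0E2 call was lost without replicate 3 of 20% O2 wo Doxy (adjusted p = 0.052). Both changes were smaller with GC correction, at −0.39 for TCIRG1 and −0.25 for ATP6V0E2, and without the 3 libraries of steep trend, at −0.46 and −0.25, and passed each time. In the library of steep trend, replicate 1 of 20% O2 + Doxy, TCIRG1 stood at 40.4 CPM beside 26.3 and 23.0 in the other two. ATP6V0D2, chosen after its values were seen, had the largest fitted change of the list, 3.47, on few counts (1, 4 and 3 with Doxy and 20, 35 and 39 without).

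At 3% O2, ATP6V1F alone of the 22 rose upon FDX2 loss (0.28, standard error 0.061, adjusted p = 0.020), and the call was lost in 4 of the 6 fits with one library left out (adjusted p up to 0.067; without replicates 1 or 2 of 3% O2 + Doxy, or replicates 1 or 3 of 3% O2 wo Doxy) and with GC correction (adjusted p = 0.097). The list median was 0.12 against 0.04 over all genes, and the single call is 4.55% of the list, beside 7.31% of all genes. With Doxy, no V-ATPase gene changed between the oxygen levels (1 at an unadjusted p under 0.05). Without Doxy, 8 fell at 3% O2 and 1 rose, with a median of −0.07 against 0.07 over all genes. These are 36.4% lower and 4.55% higher, beside 11.9% and 13.9% of all genes. Among those that fell, ATP6V1G1 changed by −0.47 on the log2 scale (standard error 0.091, adjusted p = 0.0042), ATP6V1C1 by −0.37 (0.068, adjusted p = 0.0033; −0.21 with GC correction) and ATP6V1E1 by −0.35 (0.049, adjusted p = 0.00057). The comparison of FDX2 loss at 20% O2 and that of oxygen without Doxy share the 3 libraries of 20% O2 wo Doxy, so their directions are not independent.

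Over the 6 lists together, CA9, CA13 and SLC4A7 included, 21 of the 61 tested genes changed upon FDX2 loss at 20% O2 (16 higher, 5 lower) and 4 at 3% O2 (2 higher, 2 lower). Between 3% and 20% O2, 4 changed with Doxy (3 higher, 1 lower) and 19 without (8 higher, 11 lower). Upon FDX2 loss these are 34.4% of the 61 genes at 20% O2 and 6.56% at 3% O2, near the 35.3% and 7.31% of all genes that changed in either direction. Between the oxygen levels they are 6.56% with Doxy, CA9 included, and 31.1% without, beside 2.02% and 25.8% of all genes. Among the 58 genes other than CA9, CA13 and SLC4A7 they are 5.17% (3 genes) and 31.0%. CA9 was chosen with its result known, so the shares that include it are a description only. The count of 21 was 10 without replicate 3 of 20% O2 wo Doxy and 13 without replicate 2 of either 20% O2 condition. The count of 4 upon FDX2 loss at 3% O2 became 0 without replicate 2 of 3% O2 + Doxy, 1 without its replicate 1 and 2 without any one library of 3% O2 wo Doxy. With Doxy, the count of 4 became 2 without replicates 2 or 3 of 20% O2 + Doxy or replicates 1 or 2 of 3% O2 + Doxy. Leaving out the 3 libraries with the steepest GC trend gave 24, 9, 4 and 30 genes in these 4 comparisons, and GC correction gave 33, 11, 10 and 26.

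Whether FDX2 loss acted differently at the 2 oxygen levels was tested on the difference between the responses. It passed the threshold in 5 of the 61 genes, 1 higher and 4 lower at 3% than at 20% O2 (16 at an unadjusted p under 0.05). This is 8.2% of the 61 genes, near the 7.29% of all genes, so the count does not set these lists apart. NHERF1 fell upon FDX2 loss at 20% O2 and did not pass the test at 3% O2, where the level with Doxy was 34.4 ± 6.12 CPM and that without 31.1 ± 1.90 (SD, n = 3). The responses had a difference of 0.78 on the log2 scale (standard error 0.20, adjusted p = 0.0397), or 0.49 with GC correction. For the V1 subunits ATP6V1B2 and ATP6V1A the response was lower at 3% O2, with differences of −0.37 (standard error 0.094, adjusted p = 0.0409) and −0.30 (0.078, adjusted p = 0.0421). These calls were fragile, since leaving out any one of the 12 libraries moved the count of 5, to between 0 and 12. The call was lost in 8 of these 12 fits for NHERF1 and in 10 of 12 for ATP6V1B2 and ATP6V1A (adjusted p up to 0.096, 0.14 and 0.14). GC correction gave 15 genes, and so did leaving out the 3 libraries with the steepest GC trend.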

How the data were processed

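Poly(A) RNA of 12 FDX2-iKO ES2 samples was sequenced by the authors on a DNA nanoball platform. Per the labels and the submitters' processing notes, reads were aligned to GRCh38 with STAR and counted per gene with featureCounts, and DESeq2 is also named. Versions, annotation and strand setting are not given in the sources used here. The deposited values are raw counts per gene and library, neither normalized nor pooled. The labels state that a read file was lost for replicates 1 and 2 of 20% O2 + Doxy, whose counts are included. All 58735 identifiers match GENCODE release 29 on GRCh38, and 58207 have a current symbol.

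The analysis ran in edgeR 4.0.16 and limma 3.58.1 under R 4.3.3. filterByExpr (minimum count 10, minimum total 15) kept 16891 of 32966 genes. After TMM scaling, all 12 libraries entered edgeR's quasi-likelihood fit, which had one mean for each of the 4 conditions (residual degrees of freedom 8, common biological coefficient of variation 16.3%). The fit takes 1 spread per gene for all conditions, yet replicates were closest in 20% O2 wo Doxy. There the median chi-square per degree of freedom against counting error was 1.30. It was 3.56 in 20% O2 + Doxy, 3.35 in 3% O2 + Doxy and 2.98 in 3% O2 wo Doxy. In all, 5 contrasts were tested, with Benjamini-Hochberg adjustment over all genes tested and a threshold of 0.05. CPM are relative to TMM-scaled totals. Standard errors of log2 fold changes are not output of edgeR. They were derived as the absolute log2 fold change divided by the square root of the quasi-likelihood F statistic. Their intervals use the t distribution with the total degrees of freedom of the test. Intervals are 95% intervals, and Poisson intervals and ratios of counts cover counting error only. Depth limits CA12, CA8, CA11 and, at 20% O2, CA9. The members and the gene lists were chosen with earlier results of these data known. Besides the 6 members and FDX2, the text names, in each of the first 4 contrasts, the called list genes with the largest changes (4 in each direction) and a mean of at least 1 CPM, up to 2 each way for the difference, carbonic anhydrases below the filter, genes overlapping a member, and the 3 genes closest in pattern. Other list genes are named only as called. Some genes that the rule names, and some markers, are not reported here.

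Alternatives were DESeq2 1.42.0 (size factors, Wald test), no filter, at least 10 counts in every library, the compared libraries only, a replicate factor, correction for GC content (each library's lowess trend, span 0.3, taken out as an offset), an adjusted p under 0.01, a 1.5-fold minimum and leaving out each library. Leaving out the 3 libraries with the steepest GC trend, and a replicate factor within the 6 libraries without Doxy, were added after the data were seen. Deviations of same-numbered libraries from their condition correlated across genes at 0.247 to 0.363 between 20% and 3% O2 wo Doxy (other numbers −0.432 to 0.0756). Every other pair of conditions had at least 1 value below 0.1, and differently numbered libraries with Doxy reached 0.818 between the oxygen levels. The numbers were therefore taken to pair the libraries for oxygen without Doxy only. This rests on the correlations alone, since no label states a pairing. Simulated counts in which 200 of 16891 genes changed 2-fold gave 159 recovered with 7 false calls. The changed genes had at least 1 CPM, and the simulated counts had no GC trend and no unequal spread between conditions. These figures therefore describe the simulated counts only.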

Additional observations from a re-analysis of the deposited data

Results flagged for a closer look

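In 5 genes of the acid-base lists, none of them among the 6 genes described, loss of FDX2 had unequal effects at 3% and 20% O2 by edgeR's test of the difference itself. They are 8.2% of the 61 genes tested, near the 7.29% of all genes that passed this test. The response at 3% O2 minus that at 20% O2 was 0.78 on the log2 scale for NHERF1 (adjusted p = 0.0397), −0.37 for ATP6V1B2 (adjusted p = 0.0409), −0.30 for ATP6V1A (adjusted p = 0.0421), −0.26 for ATP6V1E1 (adjusted p = 0.0474) and −0.24 for SLC9A7 (adjusted p = 0.0495). All 5 adjusted p-values lie close to the threshold, and with a replicate factor none of the 61 tested genes passed. ATP6V1E1 and SLC9A7 are named here because they passed this test. With 3 libraries per condition, no library was examined as an outlier within its condition. Some list genes with few counts stood far higher in replicate 1 of 3% O2 wo Doxy than in replicates 2 and 3. ATP6V1C2 had 694 counts beside 24 and 25, and SLC9B1 had 186 beside 6 and 10. These genes were picked after their values were seen, and others, such as CA13, did not show this.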

How the results depend on the processing

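CA9 stayed higher at 3% O2 by more than 7 on the log2 scale under every alternative that kept it in the test. Requiring at least 10 counts in every library removed it, which left 0 of the 6 genes past the threshold in both oxygen comparisons. With GC correction 1 of the 6 passed upon FDX2 loss at 20% O2 (2 with a replicate block as well) and 1 at 3% O2 (1 with the block as well), and in a fit to the compared libraries alone 2 passed for oxygen without Doxy. Leaving out single libraries changed none of these counts. Of the 61 list genes, the number changed upon FDX2 loss at 20% O2 was 21 as reported, 33 with GC correction with or without the block, 12 at an adjusted p under 0.01, 5 at a 1.5-fold minimum and 10 to 18 with single libraries left out. Upon FDX2 loss at 3% O2 it was 4 as reported, 1 without a filter, 0 in the compared libraries alone, 11 with GC correction with or without the block, 9 without the 3 libraries with the steepest GC trend, 0 at an adjusted p under 0.01 or a 1.5-fold minimum and 0 to 5 with single libraries left out. For oxygen with Doxy it was 4 as reported, 7 with DESeq2, 2 in the compared libraries alone, 10 with GC correction (9 with the block as well), 2 at an adjusted p under 0.01 and 2 to 3 with single libraries left out. For oxygen without Doxy it was 19 as reported, 30 in the compared libraries alone, 30 without the 3 libraries with the steepest GC trend, 12 at an adjusted p under 0.01, 7 at a 1.5-fold minimum and 14 to 18 with single libraries left out. For the difference between the responses it was 5 as reported, 1 without a filter, 11 with DESeq2, 0 with the replicate block, 10 with the block and GC correction, 15 with GC correction, 15 without the 3 libraries with the steepest GC trend, 0 at an adjusted p under 0.01, 1 at a 1.5-fold minimum and 0 to 12 with single libraries left out. The stricter thresholds lower the counts by construction, and the cause of the other shifts was not tested. For oxygen without Doxy, the comparison in which the numbers were taken to pair the libraries, the replicate block gave 17 genes. In the 6 compared libraries alone it gave 28, against 30 there without it. It changed no call of the 6 genes, while 8 calls of other named genes in the remaining comparisons, where the libraries share only a number, were lost with it. No called value reversed its direction under any alternative run.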
